A study of Mus musculus with 20 samples.

Results

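The BCL2 family genes described here are 10 of the 28632 genes in a table of RNA-seq counts from mouse pancreatic islets. They were taken by symbol as the best-known members of the family, and all 10 were found. The rule of choice did not use their values, though earlier results of these data were known when they were chosen. *Bcl2*, *Bcl2l1* (which encodes BCL-xL) and *Mcl1* encode pro-survival proteins. *Bax* and *Bak1* encode the effectors that open pores in the outer mitochondrial membrane. *Bid*, *Bcl2l11* (BIM), *Bbc3* (PUMA), *Pmaip1* (NOXA) and *Bad* encode BH3-only proteins, which carry stress signals to the others.

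The islets came from 12-week-old mice of 4 genotypes on the C57BL/6N background, and the genotypes differed in the mitofusins, the proteins Mfn1 and Mfn2 that fuse the outer membranes of neighbouring mitochondria. The series held 6 libraries from control mice (Ctrl), 4 from mice that lacked *Mfn1* in β-cells (β-Mfn1KO), 5 from mice that lacked *Mfn2* in β-cells (β-Mfn2KO) and 5 from mice that lacked both (β-Mfn1/2DKO). Deletion was driven by an *Ins1*-Cre allele acting on floxed exons. Controls are wild type by their labels and, by the methods of the study, a pool of mice that carried either Cre or the floxed alleles but not both. Whole islets were collected after collagenase digestion and a period in culture, so the Cre acted in β-cells while the RNA came from every cell type of the islet. In such bulk RNA, fewer cells of a type and less RNA per cell cannot be told apart.

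Mitochondrial apoptosis is set by contacts between these proteins on the outer mitochondrial membrane. Pro-survival members hold BAX and BAK in check, BH3-only members bind and occupy the pro-survival proteins or engage the effectors directly, and the pores then release cytochrome c, which starts the caspase cascade. Much of this control is exerted after transcription: BID is cut by caspase-8 into its active form, BAD is held inactive by phosphorylation, and MCL1 is a short-lived protein. BCL-xL and MCL1 are known to protect β-cells, and PUMA, BIM and the CHOP factor encoded by *Ddit3* have been tied to β-cell loss under stress. The counts describe mRNA and not these protein states.

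The libraries differed in depth with genotype, and this touched every comparison with β-Mfn1/2DKO. Total counts ran from 12400687 to 20329064 in Ctrl, from 15745680 to 16685381 in β-Mfn1KO, from 15110046 to 59533407 in β-Mfn2KO and from 65533388 to 122947313 in β-Mfn1/2DKO. No β-Mfn1/2DKO library was as shallow as any Ctrl library, so depth and genotype cannot be told apart in that comparison. Deep libraries (over 40000000 counts) were the 5 of β-Mfn1/2DKO and 2 of β-Mfn2KO (replicates 4 and 5). Values below are counts scaled by the TMM method to a common library size of 41410701 (normalized counts). The targeted genes followed the labels: the mean ± SD of *Mfn1* was 1670 ± 114 in Ctrl (n = 6), 674 ± 68.1 in β-Mfn1KO (n = 4) and 797 ± 165 in β-Mfn1/2DKO (n = 5), and that of *Mfn2* was 3505 ± 519 in Ctrl, 1577 ± 80.5 in β-Mfn2KO (n = 5) and 2084 ± 45.1 in β-Mfn1/2DKO. Among marker lists, 10 of 10 β-cell markers were lower in β-Mfn1/2DKO than in Ctrl. Their summed level was 6057558 to 9684565 in Ctrl and 2681267 to 3638490 in β-Mfn1/2DKO. The list holds *Ins1*, the gene of the Cre knock-in. *Ins1* averaged 1444206 in Ctrl, 817829 in β-Mfn1KO, 753680 in β-Mfn2KO and 238269 in β-Mfn1/2DKO. The part of the Cre allele in these values was not tested. Acinar markers, from the exocrine tissue around the islet, were higher in β-Mfn1/2DKO than in Ctrl for 10 of 12. Their sum was 678225 and 1741416 in β-Mfn1/2DKO replicates 4 and 5, 18317 to 30564 in the other 3 β-Mfn1/2DKO libraries, 11986 to 75739 in Ctrl, 4463 to 25131 in β-Mfn1KO and 19358 to 286766 in β-Mfn2KO, with *Amy2b* at 0 in some libraries of every genotype. Endothelial markers were higher for 6 of 6, with sums of 5479 to 8166 in Ctrl and 7910 to 12428 in β-Mfn1/2DKO. The part of these cell types in the results below was not tested, apart from fits without the 2 libraries of high acinar markers.

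The clearest difference among the 10 genes was in *Bid*, whose normalized count in β-Mfn1/2DKO was 2.18 times that in Ctrl. *Bcl2l1* was 1.32 times as high, and these were the only members whose 5 β-Mfn1/2DKO libraries all lay above the other 15 libraries of the series. *Bbc3* and *Bax* also rose, by 1.33 and 1.15 times, with groups that overlapped. No member fell against Ctrl, and *Mcl1* and *Bad* differed little from Ctrl. In all, 4 of 10 members passed an adjusted p of 0.05 (edgeR's quasi-likelihood test, Benjamini-Hochberg over all genes) against 16.5% of all genes tested in either direction and 9.59% in the higher direction, and 7 had an unadjusted p under 0.05. Among the 13492 genes that averaged 50 normalized counts or more, the share past the threshold was 31.9%, so that the members' count was close to that of genes at like expression. The median log2 fold change was 0.21 over the members and 0.06 over all genes tested.

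**Figure D1:**
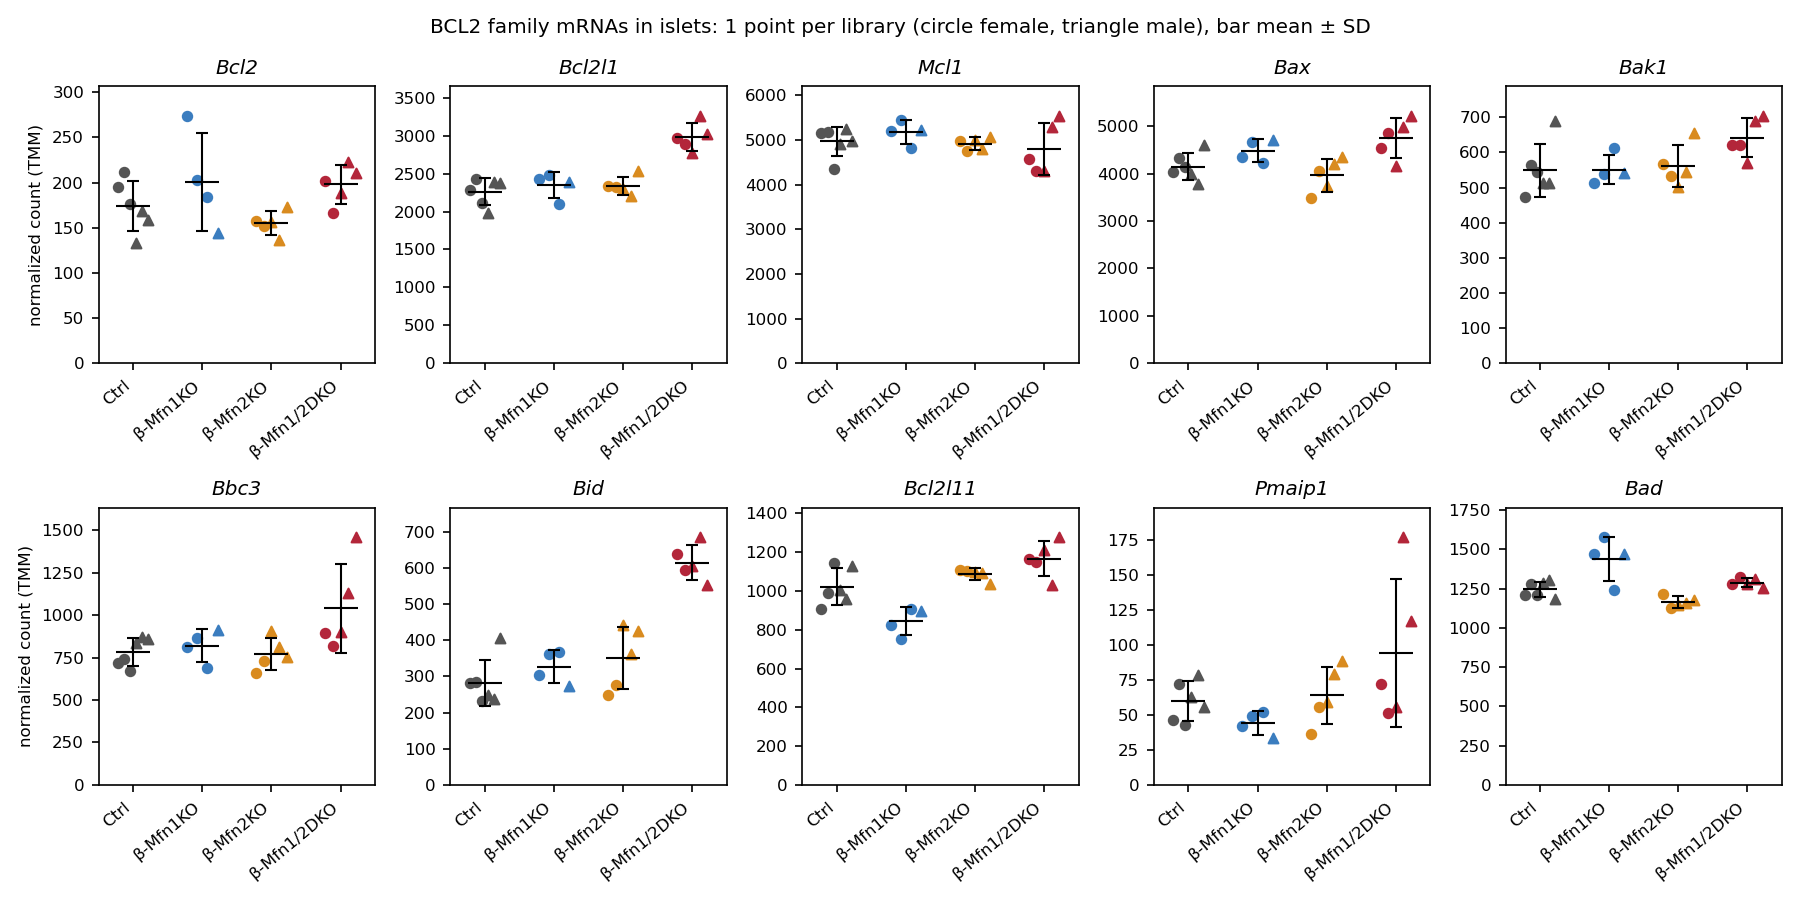
Normalized count (TMM-scaled, linear axis from 0) of each of the 10 genes in every library, by genotype, with circles for females, triangles for males and bars for the mean ± SD. All 5 β-Mfn1/2DKO points lie above all others for *Bid* (554 to 685 against at most 441) and *Bcl2l1* (2767 to 3261 against at most 2535), while the spread of *Bbc3* and *Pmaip1* in β-Mfn1/2DKO comes from 2 male libraries.

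On a scale of normalized counts per kilobase of exon, which allows one gene to be set against another, *Bax* had the highest level in Ctrl islets at 2629 ± 181 (SD, n = 6) and *Mcl1* the second at 1454 ± 95.8. *Bcl2l1* (493 ± 39.2) and *Bad* (487 ± 19.7) followed and overlapped. Below them, *Bbc3* (369 ± 39.8) and *Bak1* (228 ± 31) did not overlap with each other or with *Bcl2l11* (127 ± 11.8), which overlapped with *Bid* (79.4 ± 18.1). *Pmaip1* (21.9 ± 5.18) and *Bcl2* (19 ± 2.99) came last and overlapped. Among the pro-survival members described here, *Mcl1* thus had the highest level in Ctrl and *Bcl2* the lowest. The order or the overlaps changed at a few places in β-Mfn1/2DKO. There *Bcl2l1* (650.0 ± 39.8, n = 5) stood apart from *Bad* (504 ± 10.5), as it did in β-Mfn2KO (509.8 ± 26.6 and 455 ± 14.3, n = 5), *Bbc3* (489.8 ± 123) overlapped with *Bad*, and *Bid* (173 ± 14) stood above *Bcl2l11* (145 ± 11.3), though these also overlapped. In β-Mfn1KO, *Bad* (563 ± 55.3, n = 4) stood above *Bcl2l1* (513 ± 37.9), with overlap.

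**Figure D2:**
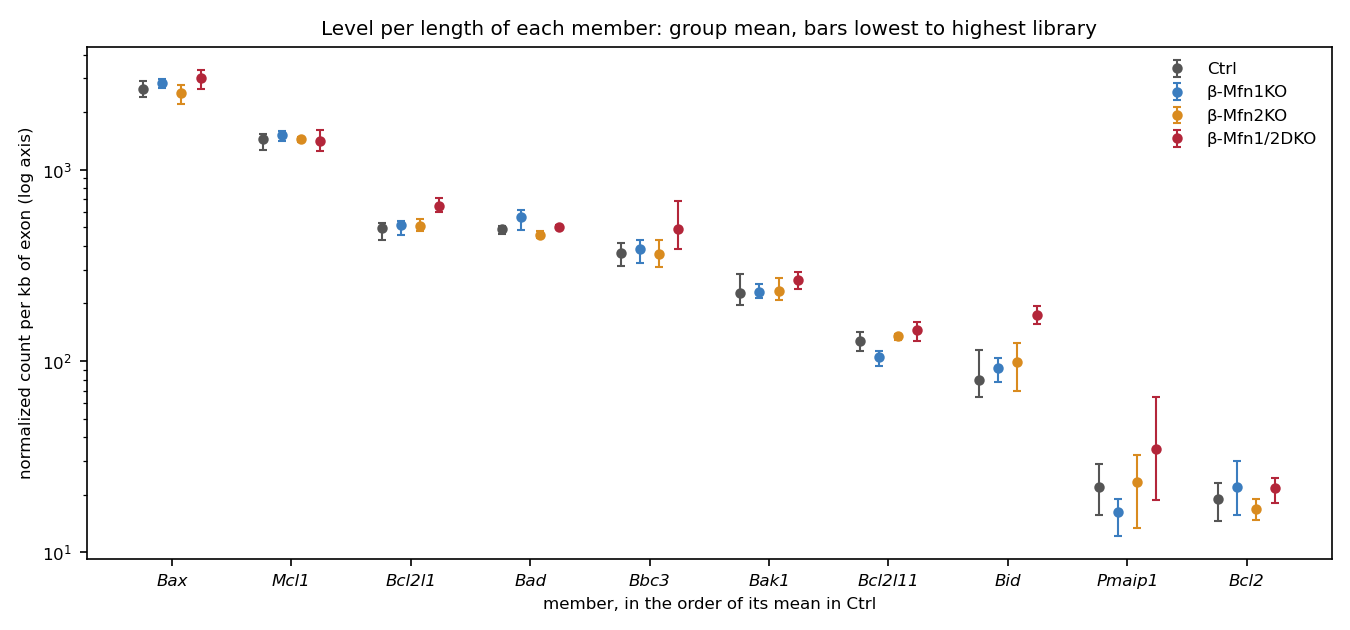
Normalized counts per kilobase of exon (log axis) of the 10 genes, ordered by their mean in Ctrl, with points for the mean of each genotype and bars from the lowest to the highest library. *Bax* and *Mcl1* lead in all 4 genotypes, and *Bid* moves from 79.4 in Ctrl to 173 in β-Mfn1/2DKO.

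As a share of the summed level per kilobase of the 10 genes, the pro-survival mRNAs made up 33.3 ± 1.81% in Ctrl (SD, n = 6), 32.6 ± 0.741% in β-Mfn1KO, 34 ± 1.63% in β-Mfn2KO and 31 ± 0.909% in β-Mfn1/2DKO (n = 5). The effectors made up 48.3 ± 2.19% in Ctrl and 48.9 ± 1.51% in β-Mfn1/2DKO. The BH3-only genes made up 18.4 ± 0.883% in Ctrl and 20.1 ± 0.768% in β-Mfn1/2DKO. In each of the 3 classes the β-Mfn1/2DKO share overlapped with that of Ctrl, while the pro-survival share of β-Mfn1/2DKO (29.5 to 31.9%) lay below that of β-Mfn2KO (32.2 to 36.5%) and its BH3-only share (19 to 21%) above that of β-Mfn1KO (17.8 to 18.8%). Within the pro-survival genes the makeup differed more, since *Mcl1* held 24.6 ± 1.5% of the sum in Ctrl (22.7 to 26.4%) and 20.9 ± 0.927% in β-Mfn1/2DKO (19.4 to 21.8%), without overlap. The *Bcl2l1* count per 100 *Mcl1* counts was 45.5 in Ctrl and 62.5 in β-Mfn1/2DKO.

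*Bid* lies on chromosome 6 (GRCm38, chr6:120891930-120916853, minus strand) and encodes the BH3-only protein that links death receptors to mitochondria. Its promoter is shown beside that of *Bax*, the effector that BID engages, because both genes rose in β-Mfn1/2DKO and both hold the GC box, the GGGCGG motif of SP-family factors, while only the *Bax* promoter holds the CACGTG E-box of MYC-like factors. The sequences are from RefSeq (GRCm38.p6) and are the 250 bases before each annotated start, 5′ to 3′ along the gene, with GC boxes on either strand and the E-box in capitals. The GC content was 63.6% for *Bid* (chr6:120916825-120917074, minus strand) and 54% for *Bax* (chr7:45466899-45467148, minus strand).
Bid: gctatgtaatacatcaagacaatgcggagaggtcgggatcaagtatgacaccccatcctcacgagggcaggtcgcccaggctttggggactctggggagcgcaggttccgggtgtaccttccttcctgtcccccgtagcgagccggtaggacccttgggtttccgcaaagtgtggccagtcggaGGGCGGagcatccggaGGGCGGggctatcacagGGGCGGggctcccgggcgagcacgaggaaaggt
Bax: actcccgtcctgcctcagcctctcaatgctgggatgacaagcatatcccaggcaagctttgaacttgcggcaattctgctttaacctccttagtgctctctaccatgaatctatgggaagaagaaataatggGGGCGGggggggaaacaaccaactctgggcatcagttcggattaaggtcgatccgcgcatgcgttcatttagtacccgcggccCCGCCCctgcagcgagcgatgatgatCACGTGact
The *Bid* promoter holds 3 GC boxes and the *Bax* promoter 2. Of the 10 genes, 9 matched the table with 15 promoters in all. At least 1 GC box stood in 10 of the 15 promoters, from 7 of the 9 genes, where 32.7% of 32851 mouse promoters of the same length held it on either strand. The E-box, which does not overlap a GC box in *Bax*, stood in 2 of the 15 promoters, of *Bax* and *Bbc3*, against 6.02% of all promoters. None of the 3 *Bcl2l1* promoters held either motif. The TGATGNAAN element bound by ATF4 with its partners and the TGACGTCA cAMP response element stood in no promoter of the 9 genes, against 3.44% and 1.55% of all promoters. These matches are letters in a window of fixed length and say nothing of factor binding.

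In Ctrl the normalized count of *Bid* was 231 at its lowest, 266 at the median and 405 at its highest. It was 304, 363, 368 and 274 in the 4 β-Mfn1KO libraries, and 248, 277, 441, 362 and 426 in the 5 β-Mfn2KO libraries. In the 5 β-Mfn1/2DKO libraries it was 639, 593, 605, 685 and 554. The β-Mfn1/2DKO libraries thus did not overlap with any other genotype, while the single knockouts overlapped with Ctrl. Among the genes that averaged 50 normalized counts or more, 6.23% had every β-Mfn1/2DKO library above all 15 others. Against Ctrl its log2 fold change was 1.13 ± 0.15 (SE; edgeR adjusted p = 9.2e-06), and it was 0.91 ± 0.16 against β-Mfn1KO (adjusted p = 3.4e-04) and 0.80 ± 0.15 against β-Mfn2KO (adjusted p = 7.5e-04). In β-Mfn1/2DKO against Ctrl, *Bid* was the only member that passed with a fold over 1.5, a rule that 5.21% of all genes met. Without β-Mfn1/2DKO replicates 4 and 5, the libraries with high acinar markers, the log2 fold change was 1.14 (adjusted p = 6.0e-05).

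*Bid* was a gene of few reads in the shallow libraries, with 71 to 135 raw counts in Ctrl and 889 to 2078 in β-Mfn1/2DKO. Between the 5 β-Mfn1/2DKO libraries and the 2 deep β-Mfn2KO libraries the log2 fold change was 0.69 ± 0.11 (edgeR adjusted p = 0.01). With depth class (deep or not) as a term in the fit, the log2 fold change against Ctrl was 0.83 ± 0.26 and did not pass (adjusted p = 0.093). No member passed against Ctrl in that fit, in which the depth term rests on the contrast of shallow and deep libraries within β-Mfn2KO. The deep β-Mfn2KO libraries, replicates 4 and 5, were both from males. Replicate 4 had an acinar sum of 286766, and replicate 5 had the highest macrophage and stellate sums given below. Comparisons that rest on these 2 libraries thus do not separate depth from sex or cell makeup. The highest *Bid* values outside β-Mfn1/2DKO were 441, 426 and 405, in β-Mfn2KO replicates 3 and 5 and Ctrl replicate 6. Summed macrophage and lymphocyte markers were 25070 in Ctrl replicate 6 and 34432 in β-Mfn2KO replicate 5 and 2884 to 7266 in the other 18 libraries. Summed stellate and fibroblast markers were also highest there, at 13732 and 14848, against 998 to 4520 in the other 18 libraries. In Ctrl replicate 6 and β-Mfn2KO replicate 5, *Lyz2* alone made up 18202 and 26334 of the macrophage and lymphocyte sums. The lymphocyte markers *Cd3e* and *Cd79a* were at most 0 and 236 in Ctrl and at most 5.94 and 199 in β-Mfn2KO. The part of any of these cells in *Bid* was not tested.

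The 3′ neighbour of *Bid* on the opposite strand is *Bcl2l13*, which encodes a distant relative of the family on mitochondria, and 628 exonic bases (17.7% of those of *Bid*) are shared. The strand setting of the authors' counting was not given in the sources used here, and *Bcl2l13* had 489.1% of the counts of *Bid*. *Bcl2l13* itself was 2516 in Ctrl and 2565 in β-Mfn1/2DKO (log2 fold change 0.03 ± 0.04, edgeR adjusted p = 0.74). The count of *Bid* per 100 *Bcl2l13* counts was 9.43 to 16.7 in Ctrl and 11.3 to 15.6 in β-Mfn1KO. It was 9.34 to 19.3 in β-Mfn2KO and 21.5 to 27 in β-Mfn1/2DKO, above the other genotypes. This ratio does not depend on how libraries are scaled. It does not remove the difference in depth between Ctrl and β-Mfn1/2DKO, so it is no check on depth. Per 100 *Bax* counts, *Bid* counts averaged 6.76 ± 1.1 (SD) in the 6 Ctrl libraries and 13.1 ± 1.62 in the 5 of β-Mfn1/2DKO. Per 100 *Bcl2l1* counts they were 12.5 ± 2.46 and 20.7 ± 1.39, so *Bid* was higher also relative to the pro-survival gene that rose.

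*Bcl2l1* (chr2:152780668-152831728, minus strand) encodes BCL-xL, which holds BAX and BAK and the activator BH3-only proteins. Its normalized count in Ctrl was 1978 at its lowest, 2324 at the median and 2428 at its highest. It was 2431, 2483, 2096 and 2395 in β-Mfn1KO, 2333, 2325, 2294, 2203 and 2535 in β-Mfn2KO, and 2965, 2892, 2767, 3261 and 3018 in β-Mfn1/2DKO. The first 3 genotypes shared one range and the β-Mfn1/2DKO libraries all lay above it. β-Mfn1/2DKO exceeded Ctrl by 0.40 ± 0.06 on the log2 scale (SE; edgeR adjusted p = 4.8e-05), β-Mfn1KO by 0.34 ± 0.07 (adjusted p = 6.7e-04) and β-Mfn2KO by 0.35 ± 0.06 (adjusted p = 4.3e-04). Without β-Mfn1/2DKO replicates 4 and 5 it was 0.37 against Ctrl (adjusted p = 5.0e-04). Against the 2 deep β-Mfn2KO libraries alone it was 0.38 ± 0.08 (adjusted p = 0.027), and with depth as a term it was 0.37 ± 0.11 against Ctrl (adjusted p = 0.079), with a larger error than in the fit without that term.

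*Mcl1* (chr3:95658788-95663176, plus strand), the other abundant pro-survival mRNA among the members, passed in no comparison of the main fit. Against β-Mfn1KO it passed as lower in β-Mfn1/2DKO when β-Mfn1/2DKO replicates 4 and 5 were left out. In Ctrl its normalized count was 4358 at its lowest, 5068 at the median and 5246 at its highest, and in β-Mfn1/2DKO it was 4572, 4302, 4305, 5290 and 5544. The 2 β-Mfn1/2DKO libraries with high acinar markers (replicates 4 and 5) were the 2 highest of that group, and the groups overlapped. Its log2 fold change against Ctrl was -0.05 with a 95% interval of -0.18 to 0.08 (edgeR adjusted p = 0.67), and -0.16 without replicates 4 and 5 (adjusted p = 0.088). *Bcl2* (chr1:106538178-106714274, minus strand), named for B-cell lymphoma, was low in all 4 genotypes. Its normalized count was 133 to 212 in Ctrl, 144 to 274 in β-Mfn1KO, 136 to 173 in β-Mfn2KO and 166 to 223 in β-Mfn1/2DKO, and its log2 fold change in β-Mfn1/2DKO against Ctrl was 0.18 ± 0.14 (adjusted p = 0.46).

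The effectors differed little. *Bax* (chr7:45461697-45466898, minus strand) was 3777 at its lowest, 4080 at the median and 4595 at its highest in Ctrl. It was 4338, 4658, 4224 and 4707 in β-Mfn1KO, 3478, 4050, 3734, 4196 and 4346 in β-Mfn2KO, and 4534, 4849, 4151, 4980 and 5217 in β-Mfn1/2DKO. The groups overlapped, and 3 of the 5 β-Mfn1/2DKO libraries lay above all others. β-Mfn1/2DKO exceeded Ctrl by 0.20 ± 0.07 on the log2 scale (SE; edgeR adjusted p = 0.044) and β-Mfn2KO by 0.26 ± 0.07 (adjusted p = 0.013), and *Bax* did not pass against β-Mfn1KO. The call against Ctrl was lost in 8 of the 20 fits that left out 1 library (without Ctrl replicate 1, 3, 4 or 5, β-Mfn1KO replicate 1, β-Mfn2KO replicate 2, or β-Mfn1/2DKO replicate 4 or 5), with log2 fold changes of 0.16 to 0.26. It was 0.14 (adjusted p = 0.24) without β-Mfn1/2DKO replicates 4 and 5 and 0.01 (adjusted p = 1) with depth as a term. *Bak1* (chr17:27019810-27029009, minus strand), the second effector, was 474 to 688 in Ctrl, 514 to 611 in β-Mfn1KO, 501 to 656 in β-Mfn2KO and 570.1 to 704 in β-Mfn1/2DKO (log2 fold change 0.22 ± 0.09 against Ctrl, adjusted p = 0.097). Its highest values outside β-Mfn1/2DKO, 688 and 656, were in Ctrl replicate 6 and β-Mfn2KO replicate 5. Those libraries had high summed macrophage and lymphocyte markers, mostly from *Lyz2*, and high stellate and fibroblast markers. The part of any of these cells in *Bak1* was not tested. Against Ctrl, *Bak1* passed in the fits that left out Ctrl replicate 6, β-Mfn2KO replicate 5 or β-Mfn1/2DKO replicate 3. Its exons overlap those of the 2 *Ggnbp1* entries on the opposite strand.

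**Figure D3:**
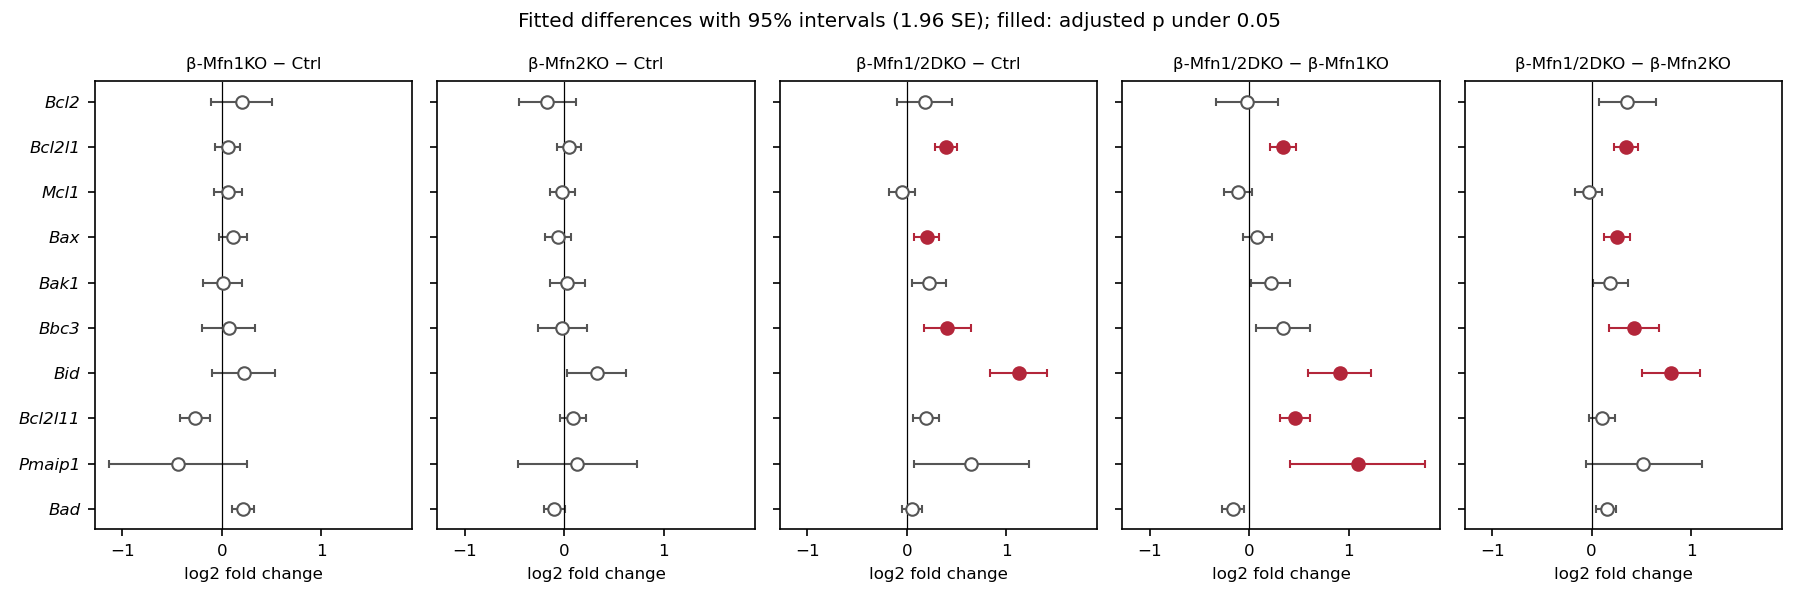
Log2 fold change of the 10 genes in 5 comparisons, with bars for the 95% interval and filled points for an adjusted p under 0.05. No point is filled in either single knockout against Ctrl, 4 are filled in each comparison with β-Mfn1/2DKO, and *Bid* and *Bcl2l1* are filled in all 3 of these.

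*Bbc3* (chr7:16308393-16318205, plus strand) encodes PUMA, a p53 and CHOP target that binds every pro-survival member. In Ctrl its normalized count was 669 at its lowest, 789 at the median and 874 at its highest. It was 809.5, 866, 690.4 and 915 in β-Mfn1KO, 660.1, 728, 907, 814 and 755 in β-Mfn2KO, and 896, 817, 898, 1132 and 1459 in β-Mfn1/2DKO. The 2 values above the range of all others were those of β-Mfn1/2DKO replicates 4 and 5, and the other 3 lay within it. The log2 fold change was 0.41 ± 0.12 against Ctrl (SE; edgeR adjusted p = 0.024) and 0.43 ± 0.13 against β-Mfn2KO (adjusted p = 0.028). Without replicates 4 and 5 it was 0.18 (adjusted p = 0.31) against Ctrl, and the call was also lost without β-Mfn1/2DKO replicate 5 alone, Ctrl replicate 1 or Ctrl replicate 3, with log2 fold changes of 0.26 to 0.51 over all fits that left out 1 library. Summed acinar markers were 678225 and 1741416 in those 2 libraries, and their part in the *Bbc3* values was not tested.

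*Pmaip1* (chromosome 18) encodes NOXA, which binds MCL1. It was a low mRNA, with 14 to 34 raw counts in Ctrl. Its normalized count was 42.5 to 78.7 in Ctrl, 33.3 to 52.2 in β-Mfn1KO and 36.7 to 88.5 in β-Mfn2KO, and in β-Mfn1/2DKO it was 72.3, 51.2, 55.4, 177 and 117. As for *Bbc3*, the 2 highest libraries were replicates 4 and 5 of β-Mfn1/2DKO. The log2 fold change was 0.65 ± 0.30 against Ctrl (edgeR adjusted p = 0.15) and 0.02 without these libraries. Against β-Mfn1KO it was 1.09 ± 0.35 and passed (adjusted p = 0.03), and without these libraries it was 0.45 (adjusted p = 0.39). That call held in 15 of the 20 fits that left out 1 library and in 5 of 11 other alternatives. It was lost, among others, with sex, the replicate block or depth as a term.

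**Figure D4:**
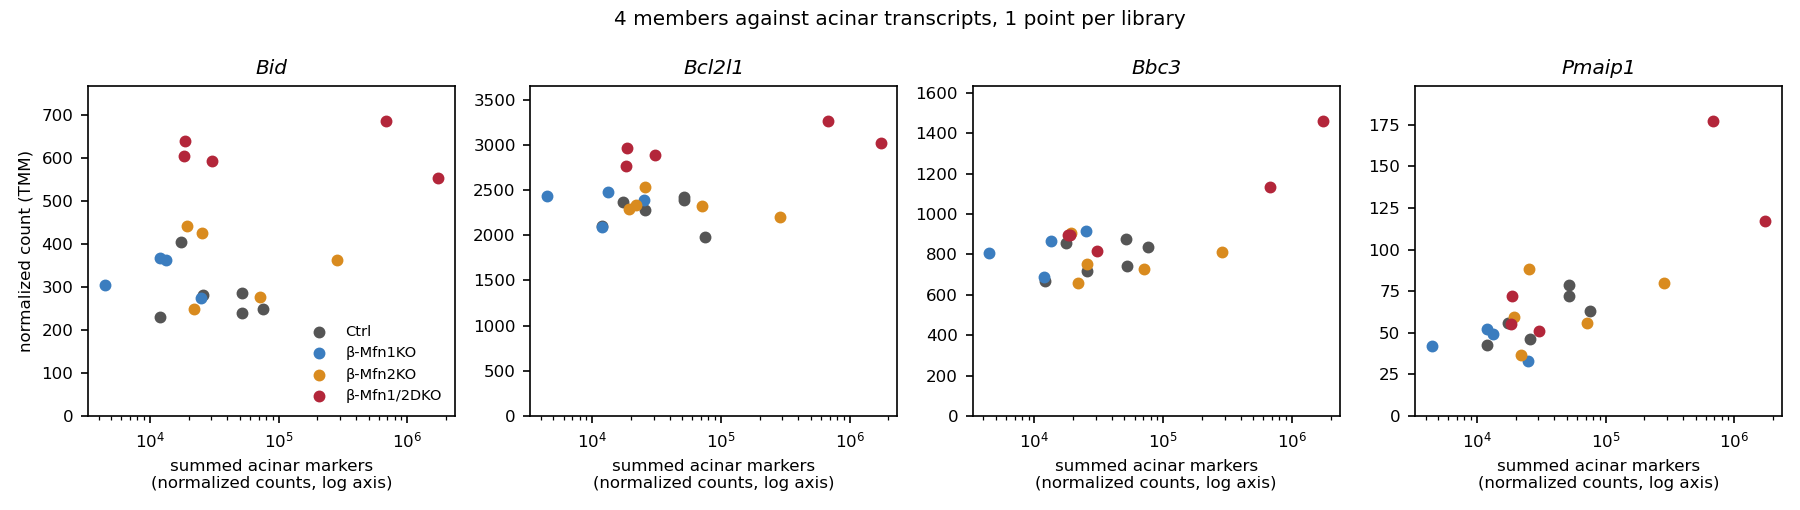
Normalized count (linear axis from 0) of *Bid*, *Bcl2l1*, *Bbc3* and *Pmaip1* against the summed normalized counts of 12 acinar markers (log axis), 1 point per library. The 3 β-Mfn1/2DKO libraries with acinar sums of 18317 to 30564 are high for *Bid* and *Bcl2l1* and lie among the other genotypes for *Pmaip1*, while those at 678225 and 1741416 are the highest for *Bbc3* and *Pmaip1*.

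*Bcl2l11* (chr2:128126038-128162547, plus strand) encodes BIM, which binds all pro-survival members and activates BAX. It was the only member that passed the test of whether the change on loss of one mitofusin depended on the other. Its normalized count in Ctrl was 907 at its lowest, 997 at the median and 1143 at its highest, and it was 826, 753, 909 and 898 in β-Mfn1KO, 1109, 1101, 1098, 1095 and 1036 in β-Mfn2KO, and 1163, 1149, 1213, 1031 and 1277 in β-Mfn1/2DKO. The β-Mfn1KO libraries lay below both other knockouts without overlap, and only the lowest Ctrl library reached into their range. β-Mfn1/2DKO was higher than β-Mfn1KO by 0.46 ± 0.08 on the log2 scale (SE; edgeR adjusted p = 1.2e-04). β-Mfn1KO differed from Ctrl by -0.27 ± 0.07 and did not pass (adjusted p = 0.47), and β-Mfn1/2DKO differed from Ctrl by 0.19 ± 0.07 (adjusted p = 0.053). The log2 change on loss of *Mfn1* in β-cells without *Mfn2* exceeded that in β-cells with *Mfn2* by 0.37 ± 0.10 (interaction, adjusted p = 0.03). That interaction passed for 1 of 10 members and for 5.92% of all genes. It was 0.40 (adjusted p = 0.029) without β-Mfn1/2DKO replicates 4 and 5 and 0.40 ± 0.12 (adjusted p = 0.071) with depth as a term. The call was lost in 5 of 20 fits that left out 1 library (Ctrl replicate 3 or 6, β-Mfn1KO replicate 1 or 2, or β-Mfn1/2DKO replicate 5). For *Bcl2l1* and *Bid*, whose rises were seen with both mitofusins gone, the interaction was 0.29 ± 0.09 (adjusted p = 0.054) and 0.58 ± 0.22 (adjusted p = 0.14) and did not pass.

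*Bad* (chr19:6941861-6951899, plus strand) encodes a BH3-only protein that pairs with BCL-xL and BCL-2 and has a second role with glucokinase. In Ctrl its normalized count was 1186 at its lowest, 1244 at the median and 1306 at its highest. It was 1468, 1578, 1242 and 1469 in β-Mfn1KO, 1219, 1124, 1144, 1156 and 1181 in β-Mfn2KO, and 1279, 1323, 1278, 1309 and 1256 in β-Mfn1/2DKO. The 3 highest libraries of the series were β-Mfn1KO replicates 1, 2 and 4, and replicate 3 lay within the Ctrl range. β-Mfn1KO differed from Ctrl on the log2 scale by 0.21 ± 0.06 (SE; edgeR adjusted p = 0.47), and without β-Mfn1KO replicate 3 it passed (adjusted p = 0.035). β-Mfn1/2DKO and β-Mfn2KO did not overlap, with a log2 difference of 0.15 (adjusted p = 0.075), and against Ctrl the value was 0.05 ± 0.05 (adjusted p = 0.6). Against β-Mfn2KO, *Bad* passed as higher in 4 of 12 alternatives, among them DESeq2 (0.12, adjusted p = 0.028). The same call came in 2 of the 20 fits that left out 1 library. Of its exonic bases 20.5% are shared with *Gpr137* on the opposite strand, a gene with 98.9% of its counts.

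In the single knockouts no member passed against Ctrl. For β-Mfn1KO this was 0 of 10, with 2 members (*Bad* and *Bcl2l11*) at an unadjusted p under 0.05, against 0.0279% of all genes past the adjusted threshold. For β-Mfn2KO it was 0 of 10, with 1 member (*Bid*, 0.33 ± 0.15, SE; adjusted p = 0.93) at an unadjusted p under 0.05, against 0.0559% of all genes. DESeq2 likewise passed 0 of 10 in both. Against β-Mfn1KO, 4 of 10 members passed in β-Mfn1/2DKO (*Bid*, *Bcl2l1*, *Bcl2l11* and *Pmaip1*, all higher), where 17.4% of all genes did. *Bad* was at -0.16 ± 0.06 in that comparison (adjusted p = 0.059), and it passed as lower with DESeq2 (-0.18, adjusted p = 0.0023), with DESeq2's size factors in edgeR (adjusted p = 0.023), with edgeR's filterByExpr (adjusted p = 0.015), with counts drawn down to the smallest total (adjusted p = 0.012) and without β-Mfn1KO replicate 3 (adjusted p = 0.0035), while under total-count scaling it was 0.01 (adjusted p = 0.96). Against β-Mfn2KO, 4 of 10 passed (*Bid*, *Bcl2l1*, *Bax* and *Bbc3*, all higher), where 13.0% did. The 3 comparisons share the β-Mfn1/2DKO libraries and are not independent of one another.

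The libraries came from both sexes (3 females and 3 males in Ctrl, 3 and 1 in β-Mfn1KO, 2 and 3 in β-Mfn2KO and in β-Mfn1/2DKO), and a sex term was fitted after the values were seen. *Bbc3* was higher in every male than in every female of its genotype. It was 669 to 742 in females and 835 to 874 in males of Ctrl, and 690.4 to 866 and 915 in β-Mfn1KO. In β-Mfn2KO it was 660.1 to 728 and 755 to 907, and in β-Mfn1/2DKO 817 to 896 and 898 to 1459. The pattern rests on 1 male in β-Mfn1KO and on 898 against 896 in β-Mfn1/2DKO. The share of all genes with such a pattern was not counted. The log2 difference, male minus female, was 0.30 ± 0.07 (SE; edgeR adjusted p = 0.12), and 0.21 (adjusted p = 0.2) without β-Mfn1/2DKO replicates 4 and 5, which were both from males. No member passed this term, against 0.126% of all genes. *Pmaip1* had a larger difference with a larger error, 0.50 ± 0.22 (adjusted p = 0.42).

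The genes whose log2 normalized counts followed those of *Bid* most closely over the 20 libraries, among genes that averaged 100 normalized counts or more, were *Nrcam* (Pearson's r 0.95), *Strbp* (0.94), *Sgip1* (0.94), *Lonp1* (0.93) and *Fzd4* (0.93). *Nrcam* encodes a neuronal cell adhesion molecule, *Lonp1* the Lon protease of the mitochondrial matrix and *Fzd4* a WNT receptor. Over the 15 libraries without β-Mfn1/2DKO the r values were 0.84, 0.86, 0.78, 0.76 and 0.79, lower than over all libraries. These 15 are among the 20 libraries that chose the 5 genes, so the values are no separate check of the likeness. All points share their library's depth and cell makeup, and no test was made. The mean normalized count in Ctrl and in β-Mfn1/2DKO was 9825 and 20856 for *Lonp1* and 46.1 and 511 for *Sgip1*, a difference that the choice by likeness to *Bid* largely fixed.

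Of the other 15 members of the BCL2 family in the table, 1 passed in β-Mfn1/2DKO against Ctrl, where 16.5% of all genes did, and the median log2 fold change was 0.25. This was *Hrk*, the BH3-only gene called Harakiri, which was too low for the rule that chose named genes and is named after its value was seen. It had 2 to 8 raw counts in each Ctrl library and 171 to 508 in each β-Mfn1/2DKO library. Normalized counts averaged 12.7 ± 6.68 (SD) over the 6 Ctrl libraries and 130.2 ± 18.3 over the 5 of β-Mfn1/2DKO, a log2 fold change of 3.36 ± 0.42 (SE; edgeR adjusted p = 5.4e-06) that was 3.45 without replicates 4 and 5. Depth moved with *Hrk* within β-Mfn2KO, where it was 2.82, 2.23 and 5.38 in the shallow libraries and 28.1 and 19.8 in the deep ones. Against the deep β-Mfn2KO libraries alone the log2 fold change was 2.49 ± 0.25 (adjusted p = 0.0014), and against Ctrl with depth as a term it was 0.61 (adjusted p = 0.84). *Bcl2l2*, which encodes the pro-survival BCL-w, was 6584 in Ctrl and 6202 in β-Mfn1/2DKO (log2 fold change -0.09 ± 0.06, adjusted p = 0.37).

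Downstream of the pores, 7 of 22 genes of the apoptosome, the caspases, their inhibitors and the outer membrane channels passed in β-Mfn1/2DKO against Ctrl, 5 higher and 2 lower, with a median log2 fold change of 0.00. This count lay near the share over genes that averaged 50 normalized counts or more (31.9%), and the share over all genes was 16.5%. *Vdac3* and *Vdac1*, which encode outer membrane channels, rose by 0.69 ± 0.09 (SE; edgeR adjusted p = 1.0e-05) and 0.29 ± 0.08 (adjusted p = 0.011). *Htra2*, which encodes a mitochondrial protease released with cytochrome c, rose by 0.38 ± 0.08 (adjusted p = 0.0022). The inhibitors *Birc6* and *Birc2* fell by 0.32 (adjusted p = 0.009) and by 0.21 (adjusted p = 0.004). None of the 22 genes passed with depth as a term, and 6 passed without β-Mfn1/2DKO replicates 4 and 5.

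Among genes known to regulate the 10 members, 11 of 23 passed, 8 higher and 3 lower, with a median of 0.02, beside 16.5% of all genes and 31.9% of those that averaged 50 normalized counts or more. *Ddit3*, which encodes the stress factor CHOP, was 2484 in Ctrl and 9620 in β-Mfn1/2DKO (log2 fold change 1.95 ± 0.29, SE; edgeR adjusted p = 4.2e-05). In β-Mfn2KO replicate 3 *Ddit3* was 8127, within the β-Mfn1/2DKO range of 6243 to 13040. The other β-Mfn2KO libraries ran from 2138 to 3504. Its partner in the stress response *Trib3* was 2889 in Ctrl and 11120 in β-Mfn1/2DKO (1.94 ± 0.23, adjusted p = 2.9e-06). *Myc*, a factor that binds E-boxes, was 374 and 1170 (1.64 ± 0.22, adjusted p = 1.2e-05). The kinase gene *Akt2*, whose product phosphorylates BAD, rose by 0.64 ± 0.07 (adjusted p = 1.3e-06), and *Usp9x*, whose product removes ubiquitin from MCL1, fell by 0.41 (adjusted p = 6.0e-04). *Rela*, which encodes a subunit of NF-κB, rose by 0.45 ± 0.13 (adjusted p = 0.014), and this was 0.13 (adjusted p = 0.21) without β-Mfn1/2DKO replicates 4 and 5. *Atf4*, the factor upstream of CHOP, was 0.07 ± 0.10 (adjusted p = 0.67). With depth as a term *Akt1*, *Akt2*, *Ddit3* and *Trib3* passed (4 of 23), and 7 of 23 passed without replicates 4 and 5.

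Of 10 genes of death receptors and their adaptors, the route that ends in the cutting of BID, 3 passed, 2 higher and 1 lower, with a median log2 fold change of 0.08, a count near the 31.9% of genes that averaged 50 normalized counts or more (16.5% of all genes). *Cflar*, which encodes the inhibitor of caspase-8 called c-FLIP, was 3807 in Ctrl and 2460 in β-Mfn1/2DKO (log2 fold change -0.63 ± 0.09, SE; edgeR adjusted p = 1.9e-05). The receptor genes *Tnfrsf10b* and *Tnfrsf1a* rose by 0.76 ± 0.20 (adjusted p = 0.01) and 0.36 ± 0.10 (adjusted p = 0.012). Without β-Mfn1/2DKO replicates 4 and 5 these were 0.29 (adjusted p = 0.28) and 0.32 (adjusted p = 0.058), and *Cflar* was the only gene of the list that passed. No gene of these 4 lists passed in β-Mfn1KO or in β-Mfn2KO against Ctrl.

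**Figure D5:**
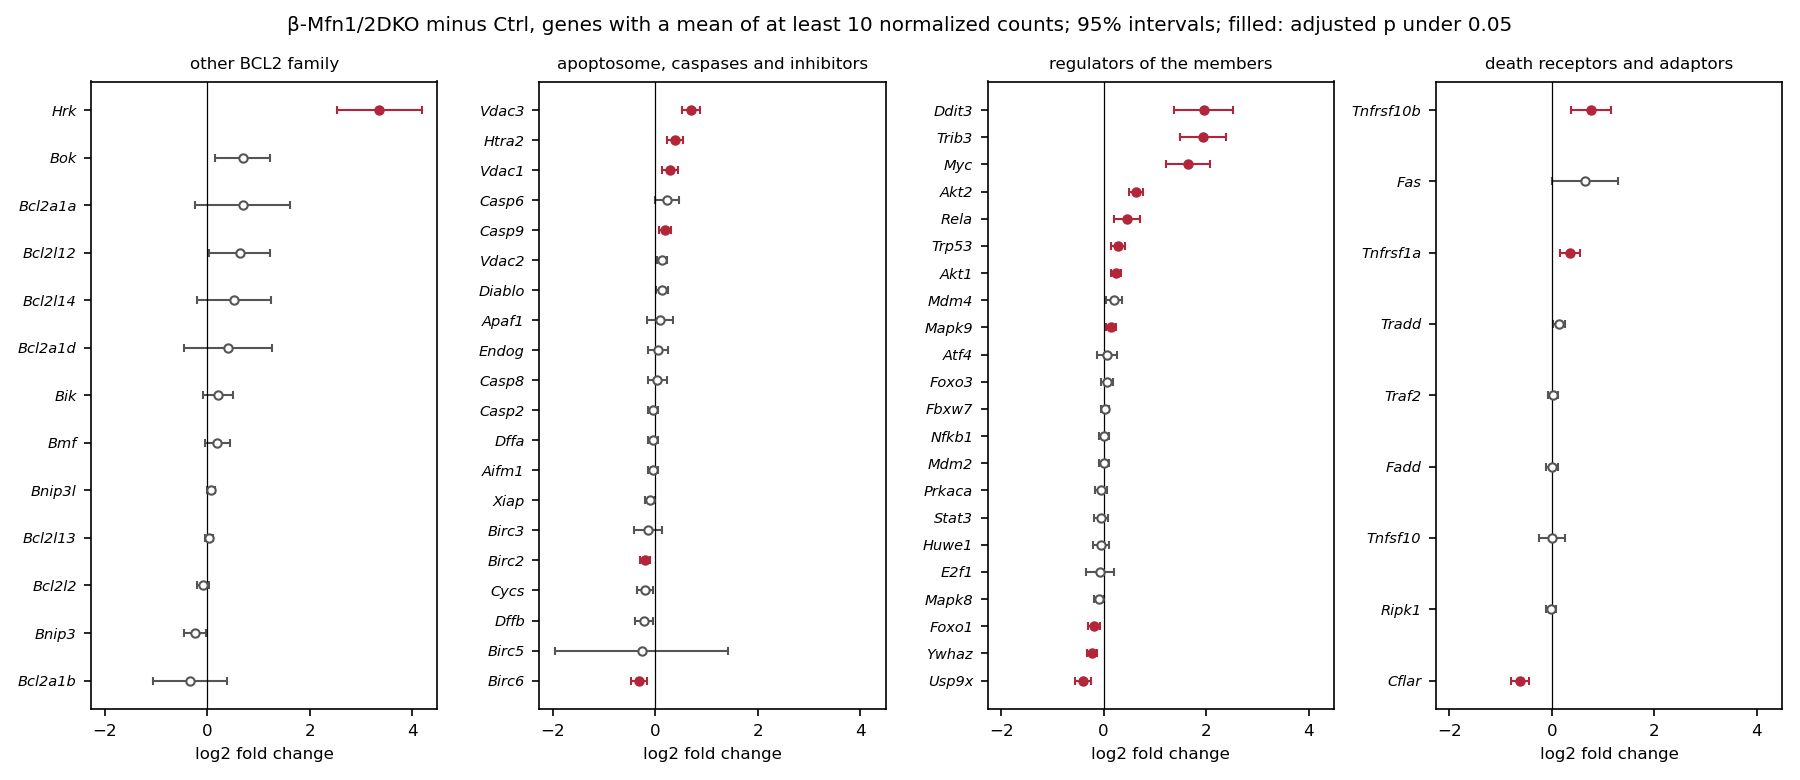
Log2 fold change in β-Mfn1/2DKO against Ctrl of the 4 companion lists, 1 panel per list, with bars for the 95% interval and filled points for an adjusted p under 0.05. Genes that averaged 10 normalized counts or more are drawn (13 of 15, 20 of 22, 22 of 23 and 9 of 10), apart from 2 not reported here, and *Hrk* at 3.36, *Ddit3* at 1.95, *Trib3* at 1.94 and *Myc* at 1.64 stand farthest to the right among the filled points.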

How the data were processed

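Islet RNA was sequenced by the authors as 151-base read pairs. Per the labels and the submitters' processing notes, reads were trimmed with cutadapt 2.3, aligned with STAR 2.6.1b to GRCm38 and counted with RSEM 1.3.1. The authors deposited whole-number counts per gene, from which genes at 0 in every sample had been removed, and a signal table of those counts divided by normalization factors (DESeq2 1.26.0 is named), which served only as an alternative scaling. Ensembl IDs were paired with GENCODE M21 symbols, and 53 of 28632 genes had none.

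Counts were fitted with edgeR 4.0.16 (R 4.3.3, TMM, quasi-likelihood) in 1 model of the 20 libraries with a term per genotype, and p-values were adjusted by Benjamini-Hochberg over 28632 genes. Standard errors came from the fold change and the F statistic, and 95% intervals from the standard error. No filter on low counts was applied. The p-values measure the spread between libraries. The scripts were tested on simulated data. The members and lists were chosen with earlier results of these data known. Named genes were the members, the targeted genes, up to 6 passing genes per list that averaged 100 normalized counts or more, and the 5 genes most like *Bid*. *Hrk*, *Bcl2l2*, *Atf4*, *Akt1*, genes overlapping a member and the markers *Ins1*, *Lyz2*, *Cd3e* and *Cd79a* were named after their values were seen. Of the list of apoptosome genes, 2 are not reported here by name.

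Alternatives were DESeq2 1.42.0, DESeq2's size factors in edgeR, total-count scaling, the authors' factors, edgeR's filterByExpr, a replicate block, sex or depth (over 40000000 counts) as a term, counts drawn down to the smallest total (12400687), and left-out libraries. Replicate numbers were shared by the labels without a stated meaning. In the pairing check, deviations from the group means correlated at 0.311, 0.112, 0.226 and 0.493 in the 4 same-numbered pairs of Ctrl and β-Mfn1KO, and the replicate block passed 0 of 10 members there, as did the fit without it.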

Additional observations from a re-analysis of the deposited data

Results flagged for a closer look

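3 results stood out by rules applied to every member. Over the 40 groups of member values examined, Dixon's test at 95% marked 2, where chance marks about 1 in 20. *Bid* in Ctrl replicate 6 was 405 normalized counts, and the nearest Ctrl library was at 286 (a gap of 0.686 of the group's range). *Bcl2l11* in β-Mfn2KO replicate 5 was 1036 normalized counts, and the nearest library of its group was at 1095 (a gap of 0.81 of the range). Both libraries had high summed macrophage and lymphocyte markers (25070 and 34432 normalized counts) and high stellate and fibroblast markers (13732 and 14848). *Lyz2* alone made up 18202 and 26334 of the macrophage and lymphocyte sums. The part of either cell type in these values was not tested. Without Ctrl replicate 6 and in every other fit that left out 1 library, the log2 fold change of *Bid* in β-Mfn1/2DKO against Ctrl was 1.08 to 1.25 and passed.

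The effect of losing *Mfn1* on *Bcl2l11* differed by whether *Mfn2* was present, by 0.37 on the log2 scale (edgeR's interaction test, adjusted p = 0.03). The adjusted p was 0.013 to 0.079 over the fits that left out 1 library.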

How the results depend on the processing

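Total-count scaling moved the median log2 difference between β-Mfn1/2DKO and Ctrl, over genes that averaged 10 raw counts or more, from 0.04 to 0.18 and the share of passing genes that were higher from 58.3% to 85%. That share was 48.2% with the authors' factors and 49.2% with counts drawn down to the smallest total, and 728 genes passed in place of 4710 with depth as a term. Members passing in β-Mfn1/2DKO against Ctrl numbered 7 under total-count scaling, 0 with depth as a term and 2 without β-Mfn1/2DKO replicates 4 and 5. Against β-Mfn1KO they numbered 7 under total-count scaling and 1 with depth as a term, and against β-Mfn2KO 1 with depth as a term, 2 without β-Mfn1/2DKO replicates 4 and 5 and 2 among deep libraries. The interaction passed for 2 members with DESeq2, total-count scaling or filterByExpr and for 0 with the authors' factors, the depth term or drawn-down counts. With a fold over 1.5, 0 members passed with depth as a term. Other BCL2 family genes passing numbered 5 under total-count scaling, 2 with the authors' factors and 0 with depth as a term, apoptosome genes 0 with depth as a term, regulators 4 with depth as a term and 7 without replicates 4 and 5, and death receptor genes 5 under total-count scaling, 0 with depth as a term and 1 without replicates 4 and 5. The causes were not tested.

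With 1 library left out, members passing in β-Mfn1/2DKO against Ctrl numbered 2 to 6, in β-Mfn1KO against Ctrl 0 to 1 and in the interaction 0 to 2, and other family genes numbered 1 to 2.

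Directions reversed only in members that passed neither before nor after. Under total-count scaling *Mcl1* was 0.09 in β-Mfn1/2DKO against Ctrl, 0.02 in β-Mfn2KO against Ctrl, 0.05 and 0.07 in β-Mfn1/2DKO against β-Mfn1KO and β-Mfn2KO and 0.04 in the interaction. *Bak1* was -0.02 in β-Mfn1KO and *Bbc3* 0.02 in β-Mfn2KO against Ctrl, *Bcl2* and *Bad* were 0.14 and 0.01 in β-Mfn1/2DKO against β-Mfn1KO, and *Bad* was 0.07 in the interaction. With the authors' factors *Bak1* was -0.07 in β-Mfn1KO and -0.03 in β-Mfn2KO and *Bbc3* 0.08 in β-Mfn2KO against Ctrl. With depth as a term *Pmaip1* was -0.07 in β-Mfn1/2DKO and -0.24 in β-Mfn2KO and *Bak1* -0.04 in β-Mfn2KO against Ctrl, and *Bax* was -0.10 in β-Mfn1/2DKO against β-Mfn1KO. With drawn-down counts *Bad* was -0.01 in β-Mfn1/2DKO against Ctrl and *Bcl2* 0.04 against β-Mfn1KO, as with sex as a term (0.04). *Mcl1* among deep libraries was 0.01 and *Pmaip1* without replicates 4 and 5 was -0.13 in β-Mfn1/2DKO against β-Mfn2KO. For male minus female, *Bcl2l1* was -0.01 without replicates 4 and 5 and -0.02 among Ctrl, and *Bax* -0.02 among Ctrl.

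With 1 library left out the reversing values ran from -0.11 to 0.01 (*Mcl1*, β-Mfn1/2DKO against Ctrl), -0.05 to 0.08 (*Bak1*, β-Mfn1KO against Ctrl), -0.05 to 0.00 (*Mcl1*), -0.03 to 0.11 (*Bak1*), -0.07 to 0.03 (*Bbc3*) and -0.01 to 0.26 (*Pmaip1*) in β-Mfn2KO against Ctrl, -0.15 to 0.16 (*Bcl2*, against β-Mfn1KO) and -0.09 to 0.02 (*Mcl1*, against β-Mfn2KO).

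Same-numbered libraries of different genotypes correlated over 0.1 in 21 of 27 pairs (mean 0.232, other pairs of the same sex 0.164), so the numbers are not shown to pair the samples. Between Ctrl and β-Mfn1KO the same-numbered pairs, all of the same sex, ran from 0.112 to 0.493. Differently numbered pairs of the same sex ran from 0.0415 to 0.381 there, so pairing is not shown for these genotypes either. With the replicate block 6 members passed in β-Mfn1/2DKO against Ctrl, 3 against β-Mfn1KO, 4 against β-Mfn2KO and 0 in the interaction, and *Bbc3* was 0.01 in β-Mfn2KO against Ctrl.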
